A study of Mus musculus with 76 samples.

Results

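The livers of Bmal1-VIPKO mice (KO below) on time-restricted feeding (TRF) were compared between circadian time 12 (CT12) and CT0, using the 4 liver libraries that the labels put in each group. The CT12 group held libraries 28, 29, 30 and 64 and the CT0 group libraries 20, 21, 55 and 73, named by the numbers in their titles, so 8 of the 26 liver libraries and of the 76 libraries of suprachiasmatic nucleus (SCN), liver and heart. The other livers set beside them came from wild-type (WT) mice on TRF and from KO mice fed ad libitum (AL), with 3 libraries at CT12 and 3 at CT0 in each. Livers of WT mice fed AL, also with 3 libraries at each time, entered the shared fit but were not compared. The series describes the KO as a loss of Bmal1 from VIP cells of the brain, so the liver itself was not the targeted tissue. Every KO liver, at CT12 as at CT0, came from mice labelled with this same KO. The Cre driver, the age and sex of the mice, the lighting and the hours of food access are not given in the sources used here. No label says that libraries came from separate animals. The p-values therefore set differences against a spread between libraries, estimated over all 26 liver libraries rather than over these 8 alone.

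Bmal1, whose gene symbol is Arntl, pairs with CLOCK or NPAS2 to switch on genes with E-box sites, among them the Period, Cryptochrome and REV-ERB genes. The Period and Cryptochrome proteins then block the activators, and the REV-ERB proteins (Nr1d1, Nr1d2) repress Arntl in a second loop through ROR elements. DBP, TEF and HLF act on D-box sites, which NFIL3 also binds and represses. The SCN of the hypothalamus sets the phase of body clocks to light, while the timing of meals is known as a strong time cue for the liver, where feeding raises glucose use and lipid synthesis and fasting raises gluconeogenesis and fat oxidation.

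The promoter windows of 5 genes are shown because they carry these sites in genes whose liver levels differed between the times. Each runs 5′ to 3′ along the gene's strand from 250 bases before to 50 bases after a RefSeq start site in GRCm38.p6, and the capitals mark the sites searched on both strands: E-box CACGTG, D-box TTANGTAA, a sterol element TCACNCCAC and the ROR element consensus. Ciart (chr3:95882179-95882478, minus strand), a repressor of the activators, held 3 E-boxes at 116, 58 and 44 bases before the start site. Per1 (chr11:69098699-69098998, plus strand) held 1 E-box, Per3 (chr4:151044616-151044915, minus strand) 2 D-boxes, Arntl (chr7:113207261-113207560, plus strand) 1 match to the ROR element consensus within the gene's first bases, and Hmgcs1 (chr13:119690101-119690400, plus strand), a cholesterol synthesis gene, 1 sterol element. The Arntl window also held the similar AAAGTAGGTTA, left in small letters because the consensus searched must end in GGTCA.
Ciart: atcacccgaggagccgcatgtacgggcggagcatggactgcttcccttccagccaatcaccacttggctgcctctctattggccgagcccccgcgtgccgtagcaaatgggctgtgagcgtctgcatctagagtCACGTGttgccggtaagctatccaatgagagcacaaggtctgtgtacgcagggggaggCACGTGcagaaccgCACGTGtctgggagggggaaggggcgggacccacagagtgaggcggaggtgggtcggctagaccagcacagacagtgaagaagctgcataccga
Per1: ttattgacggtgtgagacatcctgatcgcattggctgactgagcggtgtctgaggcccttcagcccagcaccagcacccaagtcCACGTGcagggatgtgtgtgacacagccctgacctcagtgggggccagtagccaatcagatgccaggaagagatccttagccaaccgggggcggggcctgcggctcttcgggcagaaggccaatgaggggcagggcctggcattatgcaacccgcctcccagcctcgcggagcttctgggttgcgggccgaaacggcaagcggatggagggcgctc
Per3: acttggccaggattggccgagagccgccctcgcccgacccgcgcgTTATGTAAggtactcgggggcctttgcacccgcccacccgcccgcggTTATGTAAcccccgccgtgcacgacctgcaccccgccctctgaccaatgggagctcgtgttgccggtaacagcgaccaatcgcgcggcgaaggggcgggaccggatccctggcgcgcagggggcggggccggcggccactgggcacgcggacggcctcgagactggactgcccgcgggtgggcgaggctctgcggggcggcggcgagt
Arntl: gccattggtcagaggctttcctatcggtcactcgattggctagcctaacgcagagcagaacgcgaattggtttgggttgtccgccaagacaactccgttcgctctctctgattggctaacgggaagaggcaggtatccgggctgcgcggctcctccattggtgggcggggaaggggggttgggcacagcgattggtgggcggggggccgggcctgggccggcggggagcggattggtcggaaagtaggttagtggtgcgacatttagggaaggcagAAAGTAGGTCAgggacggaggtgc
Hmgcs1: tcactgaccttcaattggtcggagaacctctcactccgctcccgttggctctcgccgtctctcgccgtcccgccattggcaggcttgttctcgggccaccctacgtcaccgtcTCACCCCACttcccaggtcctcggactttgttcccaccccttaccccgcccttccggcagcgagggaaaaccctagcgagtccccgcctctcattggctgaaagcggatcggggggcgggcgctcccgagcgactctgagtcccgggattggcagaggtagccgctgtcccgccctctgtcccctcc

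Of 32851 such windows, 7.15% held the E-box, 2.32% the D-box, 0.384% the ROR element and 1.24% the sterol element. Of the 19 core clock genes, 16 had a window, and 5 of these held an E-box (Ciart, Per1, Tef, Bhlhe41 and Cry1). No window of Dbp, Nr1d1, Nr1d2, Npas2 or Clock held any of the 4 motifs, which says only that these letters were not within these bases. Among windows of genes higher at CT12 in the comparison described next, 12 of 1478 held the ROR element, against 1 of 1680 among genes lower at CT12 and 15 of 10163 among tested genes that were not called. The E-box was in 8.39% of the windows of genes higher at CT12, in 11.0% of those of genes lower at CT12 and in 9.69% of those not called. These shares are descriptions of the letters and were not tested.

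The 8 libraries held 15637738 to 16553126 counts at CT12 and 15351853 to 18254425 at CT0, with 2.21 to 3.44% and 2.04 to 2.95% of counts on mitochondrial genes. No 2 libraries were identical. The AL groups, which share the estimate of spread, each held 1 library with a 3-digit title number. In AL KO that library lay between libraries 65 and 66 in 53.3% of genes at CT12 and between 56 and 57 in 57.9% at CT0, and its median squared deviation from a weighted mean of the pair was 1.45 and 1.37 times what counting error gives. Over all 4 AL groups it was 1.37 to 2.12 times. Over the 8 TRF KO livers that ratio was at least 3.09 for the best pair. Whether these libraries are independent of their group mates was not tested. The main counts of called genes are given with and without them, and other values include them where not stated otherwise. In the SCN under TRF, over both times, Vip was 0.342 to 1.07 CPM (a gene's counts relative to its library's TMM-scaled total; median 0.583) in KO and 2.69 to 17.7 (median 12.1) in WT, and Arntl 18.3 to 22.7 (median 21.5) in KO and 21.4 to 23.9 (median 22.4) in WT, with 6 libraries of each. Among the liver libraries the summed hepatocyte markers overlapped between the times, at 121100 to 134900 CPM at CT12 and 123700 to 141800 at CT0, and 2 of the 9 (Pck1, Cyp2e1) were called lower at CT12. Markers of other liver cells included some called higher at CT12, where 10.5% of all genes were called higher and 11.5% lower. They were 3 of 8 stellate cell or fibroblast markers (Dcn, Col3a1, Pdgfrb; list sum 163 to 226 CPM at CT12 and 133 to 159 at CT0, without overlap), 2 of 7 endothelial markers (Lyve1, Cdh5; 140 to 197 and 128 to 163), 1 of 7 macrophage markers (Adgre1; 63.9 to 259.9 and 60.2 to 142.9), 1 of 5 tested cholangiocyte markers (Sox9; 39.7 to 63.2 and 29.8 to 45.5) and 1 of 6 tested lymphocyte markers (Ptprc; 5.15 to 16.8 and 6.92 to 9.42). In lists this short, 1 called gene is not set apart from the share of all genes. Called lower at CT12 were 1 of 2 tested adipocyte markers (Cidec; list sum 2.02 to 4.18 CPM at CT12 and 4.76 to 6.23 at CT0) and 1 of 2 tested neuron markers (Syt1; 3.83 to 10.6 and 20.6 to 32.8), sums that did not overlap either. Their part in the results was not tested, and in whole tissue fewer cells of a type and less RNA per cell cannot be told apart. Of 7 pancreas markers 5 were at 0 in all 8 libraries. So were 2 of the 5 neuron markers (Snap25, Slc17a6) and 1 of the 6 adipocyte markers (Lep). The sums of these lists thus rest on their other members.

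Large parts of the liver transcriptome differed between CT12 and CT0 in TRF KO livers. With edgeR's quasi-likelihood test at a Benjamini-Hochberg adjusted p below 0.05, 3167 of 14397 genes (22.0%) were called, 1515 higher (10.5%) and 1652 lower (11.5%) at CT12. The median absolute log2 difference of the called genes was 0.64, and 786 differed at least 2-fold (444 higher, 342 lower), 169 at least 4-fold and 50 at least 8-fold. For 2844 genes (19.8%) the 4 CT12 libraries did not overlap the 4 CT0 libraries, 8.98% of all genes lying higher and 10.8% lower. The median log2 difference of all genes tested was 0.03. Libraries 55 and 64 carry title numbers next to those of AL KO libraries 56, 57, 65 and 66. Without 55 and 64, 1973 of 14354 genes were called (13.7%, with 985 higher and 988 lower), of which 1897 were also among the 3167. A fit of the TRF KO livers alone called 1934 of 13209 (14.6%), and the same fit without 55 and 64 called 844 of 13297 (6.35%). Without the 4 AL libraries of 3-digit title numbers 2542 of 14649 were called (17.4%). List counts given below under these settings are to be set against these smaller shares of all genes.

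The CT12 libraries were more spread than the CT0 libraries. Over 9252 genes with at least 5 CPM on average, the median SD of log2 CPM was 0.21 at CT12 and 0.15 at CT0, and 68.7% of these genes had the larger SD at CT12. The TRF WT livers, with 3 libraries each, had medians of 0.20 at CT12 and 0.15 at CT0.

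The activators of the core clock were called higher at CT12, while its repressors and output factors were in part lower. Of 19 core clock genes, 5 rose at CT12 (Arntl, Clock, Npas2, Cry1, Nfil3), 8 fell (Dbp, Per1, Per3, Ciart, Nr1d2, Tef, Hlf, Bhlhe41) and 6 were not called, among them Nr1d1, Per2 and Cry2, against 10.5% of all genes higher and 11.5% lower. The list's median log2 difference was -0.71. The counts were the same, 5 and 8, without libraries 55 and 64 and in the fit of TRF KO livers alone, while that fit without 55 and 64 no longer called Per1, Per3, Cry1 and Nfil3. Values below are CPM scaled by edgeR's TMM factors, in CT12 libraries 28, 29, 30 and 64 and then CT0 libraries 20, 21, 55 and 73.

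All 3 activators were higher at CT12. Arntl (chromosome 7, 113207465 to 113314126 in GRCm38) stood at 36.6, 34.2, 26.4 and 32.3 CPM at CT12, against 1.30, 1.02, 1.92 and 1.14 at CT0. The CT12 libraries lay close together and far above the CT0 libraries, with a log2 difference of 4.59 ± 0.16 (SE; edgeR adjusted p 4.04e-16). Clock, its partner, was 34.8, 37.5, 29.6 and 49.6 CPM at CT12 and 11.7, 9.09, 14.9 and 15.0 CPM at CT0 (log2 1.58 ± 0.17; edgeR adjusted p 2.75e-07). Npas2, a CLOCK paralogue, was 3.10, 15.7, 11.2 and 15.9 CPM at CT12 and 0.113, 0.0602, 0.0685 and 0.0671 CPM at CT0. The CT0 values of Npas2 rested on 5 reads in all, so its log2 difference of 7.06 ± 0.70 (edgeR adjusted p 3.32e-07) depends on the prior count and is not a bound.

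Of the 6 genes of the Period and Cryptochrome families and Ciart, 3 were called lower at CT12 (Per1, Per3, Ciart), Cry1 higher and Per2 and Cry2 in neither direction. Per3 was 27.8, 4.84, 8.77 and 4.11 CPM at CT12 and 109.8, 84.7, 82.4 and 121.8 CPM at CT0 (log2 -3.14 ± 0.50; edgeR adjusted p 1.57e-04). Per1 was 19.2, 36.4, 68.6 and 24.2 CPM at CT12 and 125.7, 156.2, 92.1 and 98.6 CPM at CT0 (log2 -1.67 ± 0.41; edgeR adjusted p 0.0066). Ciart, with the 3 E-boxes shown above, was 4.22, 0.537, 2.41 and 0.981 CPM at CT12 and 29.7, 48.9, 29.1 and 24.8 CPM at CT0 (log2 -4.04 ± 0.55; edgeR adjusted p 2.49e-05). In each of these 3 the groups did not overlap. Cry1 ran the other way, at 58.8, 30.9, 15.8 and 32.6 CPM at CT12 and 11.6, 10.6, 12.1 and 10.9 CPM at CT0 (log2 1.61 ± 0.28; edgeR adjusted p 2.37e-04). Per2 overlapped between the groups, at 93.4, 17.8, 29.0 and 32.4 CPM at CT12 and 77.8, 84.4, 55.2 and 65.0 CPM at CT0 (log2 -0.71 ± 0.39; edgeR adjusted p 0.212).

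Of the D-box factors Dbp, Tef and Hlf fell and Nfil3 rose, and in the second loop Nr1d2 fell. Dbp, an activator at D-boxes, was 4.02, 1.02, 8.28 and 0.552 CPM at CT12 and 174, 189.8, 141.6 and 150.3 CPM at CT0 (log2 -5.57 ± 0.57; edgeR adjusted p 1.06e-06). Tef fell less, to 29.1 to 134.8 CPM at CT12, against 282.1 to 292.1 CPM at CT0 (log2 -2.01 ± 0.40; edgeR adjusted p 0.00111). Nr1d2, a REV-ERB gene, was 10.2, 11.5, 27.7 and 5.46 CPM at CT12 and 61.7, 62.2, 65.9 and 74.2 CPM at CT0 (log2 -2.27 ± 0.37; edgeR adjusted p 1.81e-04). Nfil3, the D-box repressor, was 52.5, 58.8, 25.9 and 36.2 CPM at CT12 and 25.0, 20.7, 22.9 and 20.1 CPM at CT0 (log2 0.97 ± 0.24; edgeR adjusted p 0.00567), with library 30 close to the CT0 libraries. Hlf and Bhlhe41 also fell, with log2 differences of -0.69 ± 0.17 and -1.55 ± 0.31.

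In Nr1d1, the other REV-ERB gene, 1 CT12 library stood far from its group. It was 3.17, 6.57 and 2.76 CPM in CT12 libraries 28, 29 and 64 but 68.2 CPM in library 30, against 52.3, 34.0, 60.0 and 46.7 CPM at CT0. Over all 4 against 4 libraries its log2 difference was -1.26 ± 0.80 (edgeR adjusted p 0.288), and without library 30 it was -3.52 ± 0.68 (edgeR adjusted p 0.00105). Without library 28, Per2 and Cry2 were called lower at CT12, with log2 differences for Per2 of -1.41 ± 0.31 and for Cry2 of -1.03 ± 0.24 (edgeR adjusted p 0.00315 and 0.00366). With all libraries Cry2 lay at the threshold (log2 -0.71 ± 0.26, edgeR adjusted p 0.0501), and DESeq2 called it lower (DESeq2 adjusted p 0.0212).

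**Figure D1:**
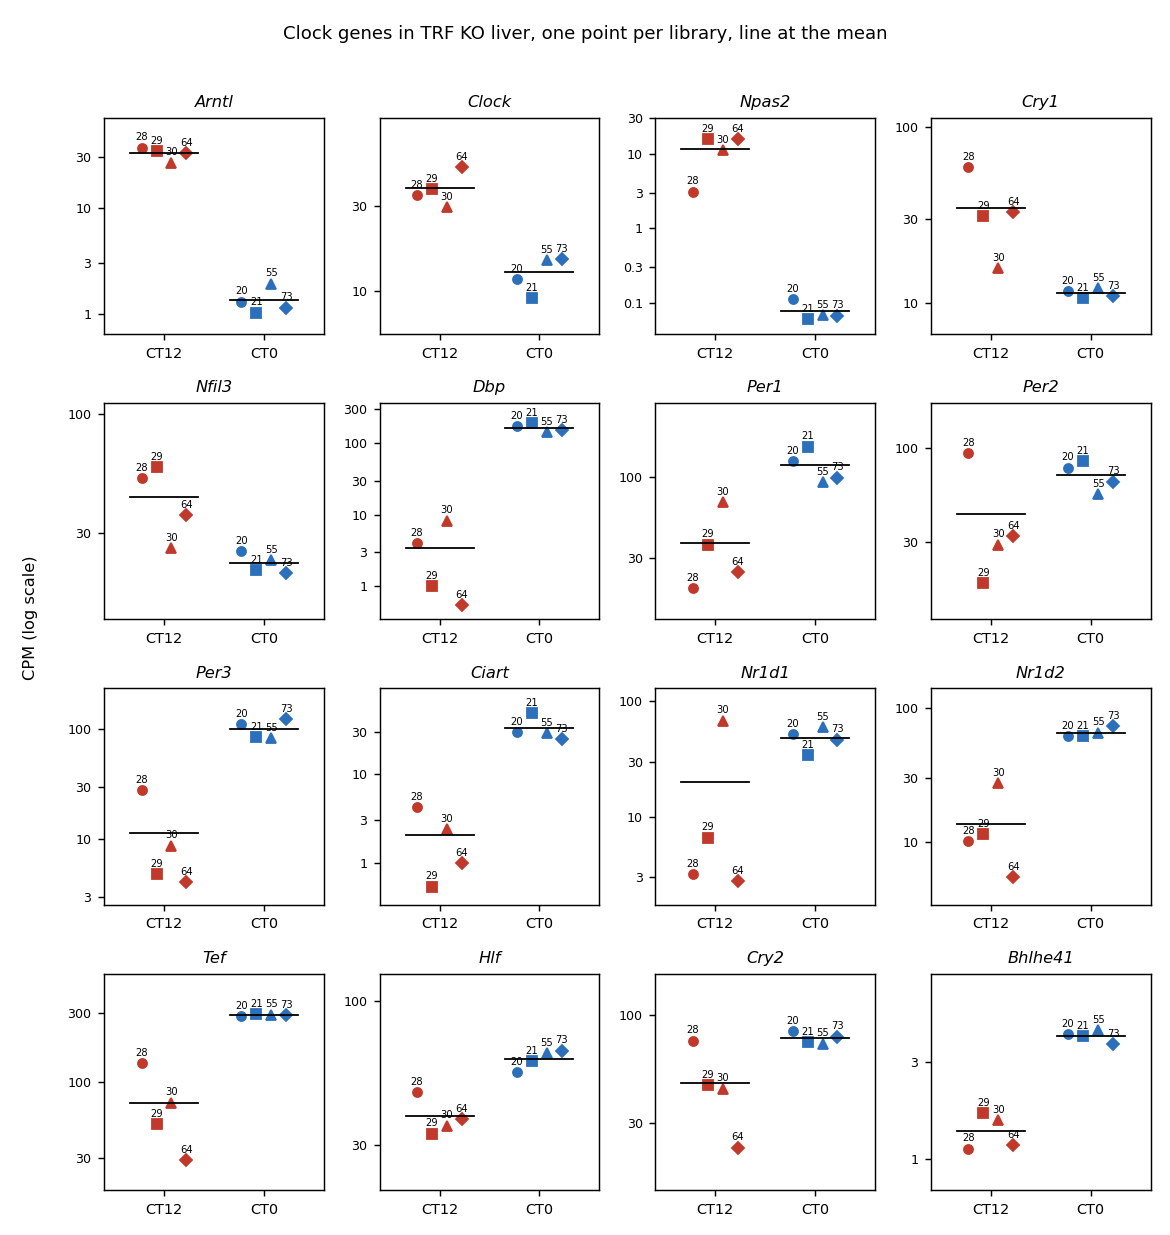
CPM on a log axis for 16 clock genes in TRF KO liver, with CT12 libraries (red) left of CT0 libraries (blue), title numbers beside the points and a line at each group mean. Library 30 lies with the CT0 libraries for Nr1d1 (68.2 CPM), and library 28 lies above the other CT12 libraries for Cry1, Per2 and Tef.

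The CT12 libraries also differed among themselves in which clock genes stood high. Besides Nr1d1, library 30 had the highest Dbp, Per1 and Nr1d2 and the lowest Cry1, Nfil3, Arntl and Clock of the 4. Library 28 had the highest Cry1 (58.8 CPM), Per2 (93.4), Per3 (27.8) and Tef (134.8), and the lowest Npas2 (3.10) and Per1 (19.2). The heart libraries with the same title numbers, whose labels do not say that a number marks 1 animal, stood apart in some of the same genes. Nr1d1 in heart was 124.6 CPM in library 30 and 34.2, 29.0 and 38.5 CPM in libraries 28, 29 and 64, against 61.6 to 80.8 CPM in the CT0 hearts. Dbp in heart was 64.1 CPM in library 30 and 10.2 to 19.6 CPM in the other CT12 hearts, and Per1 was 184.4 CPM in library 30 and 31.6 to 91.2 CPM in the others. These values were chosen after they were seen and carry no test.

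**Figure D2:**
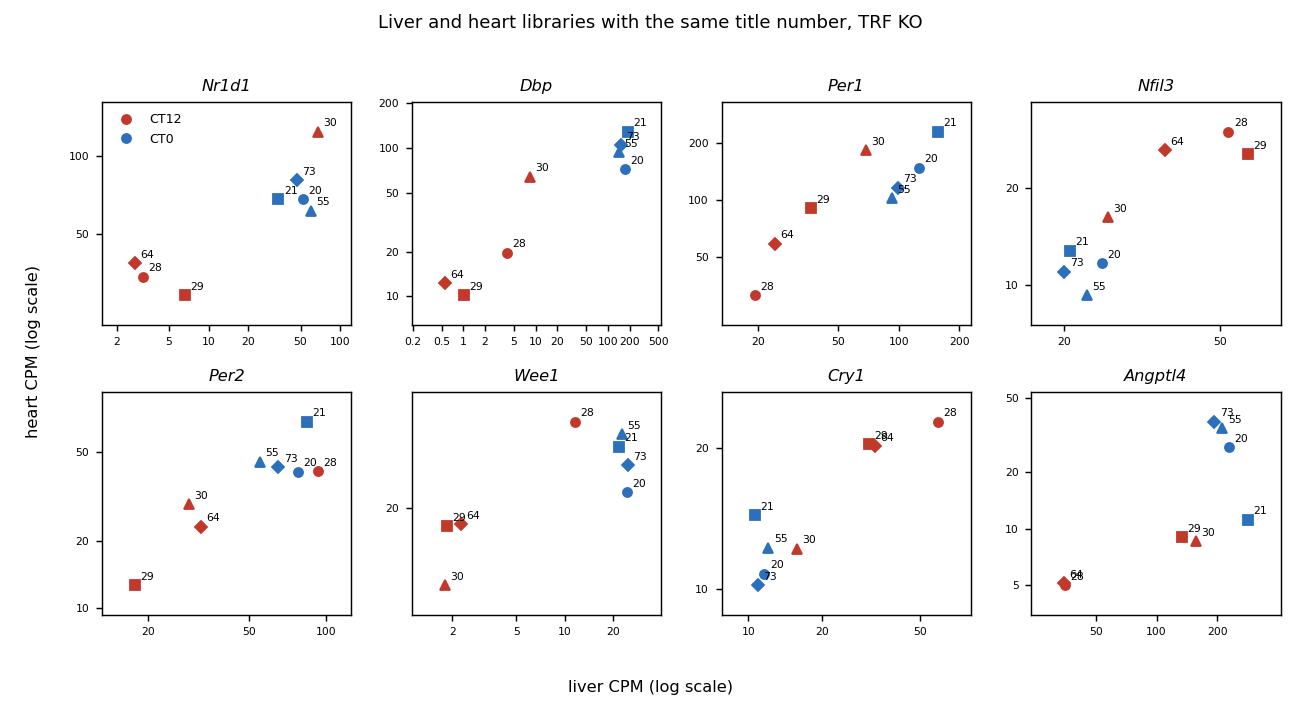
Heart CPM against liver CPM, both on log axes, for 8 genes in the 4 CT12 (red) and 4 CT0 (blue) title numbers of TRF KO mice. For Nr1d1, library 30 is the highest CT12 point on both axes, at 68.2 CPM in liver and 124.6 CPM in heart.

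Genes of the clock output list, chosen with earlier results of these data known, were mostly lower at CT12. Of 11 tested, 8 fell and 1 rose at CT12, against 11.5% and 10.5% of all genes, with a median log2 difference of -1.73. The list's other gene, Tars1, was not found under that symbol and is left out of these counts. Its older symbol, Tars, is named below for its feeding interaction. Usp2, a deubiquitinase, was 13.3, 3.17, 4.63 and 4.72 CPM at CT12 and 85.2, 102.7, 69.6 and 73.6 CPM at CT0 (log2 -3.69 ± 0.50; edgeR adjusted p 3.01e-05). Wee1, a kinase that holds cells before mitosis, was 11.6 CPM in library 28 and 1.79 to 2.27 CPM in the other CT12 libraries, against 21.9 to 24.8 CPM at CT0 (log2 -2.44 ± 0.47). Por, the electron donor of the cytochrome P450 enzymes, and Gys2, the liver glycogen synthase, fell by 2.17 ± 0.35 and 2.12 ± 0.15 on the log2 scale. Nampt, which limits NAD synthesis, and Coq10b fell by 0.87 ± 0.14 and 1.98 ± 0.27. Leo1, a subunit of the PAF1 transcription complex, was the 1 of these 11 that rose, at 18.3 to 28.3 CPM at CT12 and 5.42 to 7.25 CPM at CT0 (log2 1.81 ± 0.13; edgeR adjusted p 6.74e-10).

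Cholesterol synthesis was the list with the highest median. Of 25 genes 19 rose and 0 fell at CT12, against 10.5% and 11.5% of all genes, and the median log2 difference was 0.95. Hmgcs1, which makes the substrate of HMG-CoA reductase and whose window held the sterol element, was 306.5, 337.2, 535.8 and 639.9 CPM at CT12 and 96.2, 104.5, 72.4 and 140.3 CPM at CT0 (log2 2.14 ± 0.31; edgeR adjusted p 4.31e-05). Sqle, which oxidises squalene, was 214.5, 135.8, 234.5 and 243.6 CPM at CT12 and 52.3, 75.5, 36.7 and 59.3 CPM at CT0 (log2 1.89 ± 0.19; edgeR adjusted p 1.87e-07). Lss, Sc5d and Dhcr7, later enzymes of the pathway, rose by 1.63 ± 0.23, 1.05 ± 0.16 and 1.00 ± 0.14 on the log2 scale. Lss was lowest of the CT12 libraries in library 29 (133.6 CPM; 247.5 to 260.8 in the others), still above the CT0 libraries (47.0 to 97.4). Without libraries 55 and 64, where 13.7% of all genes were called in either direction, 17 of the 25 rose and 0 fell. Of 17 listed genes with a promoter window, 1 held the sterol element.

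Fatty acid synthesis genes that were called were mostly higher at CT12. Of 25, 9 rose and 3 fell, against 10.5% and 11.5% of all genes, so the falls were near the share of all genes. The median log2 difference was 0.68. Elovl3, a fatty acid elongase, was 277.8, 505.4, 113.7 and 551.6 CPM at CT12 and 16.5, 26.6, 60.3 and 28.0 CPM at CT0 (log2 3.47 ± 0.39; edgeR adjusted p 3.26e-06). Pnpla3, a lipid droplet lipase, was 27.2, 3.88, 58.5 and 23.8 CPM at CT12 and 2.14, 1.20, 0.616 and 0.940 CPM at CT0 (log2 4.49 ± 0.90; edgeR adjusted p 0.00131). Insig2, which holds SREBP in the endoplasmic reticulum, rose by 2.20 ± 0.21 and Mlxipl, which encodes the sugar-sensing factor ChREBP, by 0.99 ± 0.18 on the log2 scale. Fasn, fatty acid synthase, was not called, at 3072, 683.7, 2812 and 1671 CPM at CT12 and 1363, 1065, 240.4 and 343.6 CPM at CT0 (log2 1.45 ± 0.54; edgeR adjusted p 0.0587). Both groups of Fasn were spread, with library 29 low at CT12 and libraries 55 and 73 low at CT0, and it was called higher without 29 or 20 (edgeR adjusted p 0.0222 and 0.0245). DESeq2 called Fasn higher with all libraries (DESeq2 adjusted p 0.0204). Fasn was named after its values were seen.

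Fatty acid oxidation and ketogenesis genes that were called all fell. Of 37, 11 fell and 0 rose, against 11.5% and 10.5% of all genes, with a median log2 difference of -0.25. Without libraries 55 and 64, in the fit of TRF KO livers alone and without the 4 AL libraries of 3-digit title numbers, 7 fell in each. Of all genes, these fits called 13.7%, 14.6% and 17.4% in either direction, against 22.0% in the main fit. Cpt1a, which carries fatty acids into mitochondria, was 279.6, 340.2, 300.8 and 263.4 CPM at CT12 and 741.1, 697.3, 936.2 and 856.9 CPM at CT0 (log2 -1.45 ± 0.12; edgeR adjusted p 1.20e-08). Ppara, the receptor that drives these genes in fasting, was 64.1 to 85.4 CPM at CT12 and 118.1 to 175.5 CPM at CT0 (log2 -1.08 ± 0.16; edgeR adjusted p 3.15e-05). Eci2, Acaa1a and Creb3l3 fell by 1.02 ± 0.14, 0.71 ± 0.12 and 0.67 ± 0.11 on the log2 scale.

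Glucose handling shifted at several named steps. Of 24 glucose use and glycogen genes, 4 rose and 8 fell, against 10.5% and 11.5% of all genes. The glycogen-targeting subunits of protein phosphatase 1 moved in both directions. Ppp1r3c was 218.6, 185.4, 108.2 and 214.9 CPM at CT12 and 20.3, 32.9, 40.2 and 22.6 CPM at CT0 (log2 2.65 ± 0.28; edgeR adjusted p 8.98e-07), and Ppp1r3b rose by 1.77 ± 0.19. Ppp1r3g fell, at 1.45, 8.00, 4.51 and 0.0613 CPM at CT12 and 179.4, 176.5, 47.5 and 58.5 CPM at CT0 (log2 -5.03 ± 0.90; edgeR adjusted p 4.89e-04), the lowest value resting on 1 read. Slc2a5, a fructose transporter, was 1.47 to 4.24 CPM at CT12 and 26.1 to 38.9 CPM at CT0 (log2 -3.37 ± 0.22; edgeR adjusted p 1.11e-10).

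Of 18 gluconeogenesis genes 6 fell and 2 rose, against 11.5% and 10.5% of all genes, so the rises were near the share of all genes. The median log2 difference was -0.41, and 3 fell and 2 rose without libraries 55 and 64, where 13.7% of all genes were called. Slc37a4, which moves glucose 6-phosphate into the endoplasmic reticulum, fell by 1.13 ± 0.19 and Foxo1, an insulin-restrained activator, by 0.81 ± 0.14 on the log2 scale. Slc16a1, a lactate transporter, rose by 1.13 ± 0.12. Crtc2 fell by 0.45 ± 0.11, a call lost without libraries 55 and 64 (edgeR adjusted p 0.104) and in the fit of TRF KO livers alone (edgeR adjusted p 0.0504). Among 17 insulin and fasting signals, 4 fell and 2 rose, against the same 11.5% and 10.5% of all genes. Lpin2 and Foxo3 fell by 1.33 ± 0.16 and 0.90 ± 0.13, and Insr, the insulin receptor, by 0.44 ± 0.11.

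Another division among the CT12 libraries set 28 and 64 against 29 and 30. Pck1, the rate-limiting gluconeogenic enzyme, was 519.8 and 598.5 CPM in libraries 28 and 64 and 4056 and 2933 CPM in libraries 29 and 30, against 4044 to 6354 CPM at CT0. Its fall (log2 -1.29 ± 0.44; edgeR adjusted p 0.0428) lost its call without any 1 of libraries 20, 21, 55, 73, 28 and 64, without 55 and 64 together, in the fit of TRF KO livers alone and without the 4 AL libraries of 3-digit title numbers. Angptl4, an inhibitor of lipoprotein lipase that is raised in fasting, was 35.0 and 34.9 CPM in 28 and 64 and 133 and 157 CPM in 29 and 30, against 193.4 to 282.5 CPM at CT0 (log2 -1.35 ± 0.41; edgeR adjusted p 0.0213). This call was lost without 21, 28 or 64, without 55 and 64 together (edgeR adjusted p 0.0903), in the fit of TRF KO livers alone (0.147) and without the 4 AL libraries (0.0507). Igfbp1, an insulin-repressed binding protein, was 133.8 and 40.5 CPM in 28 and 64, 372.6 and 465.6 CPM in 29 and 30, and 233.4 to 411.9 CPM at CT0. G6pc, glucose 6-phosphatase, was 349.5 and 173.5 CPM in 28 and 64, 858.0 and 631.7 CPM in 29 and 30, and 419.5 to 720.2 CPM at CT0. Neither Igfbp1 nor G6pc, both named after their values were seen, was called (edgeR adjusted p 0.818 and 0.614). Tfrc, the transferrin receptor, ran the other way, at 50.2 and 75.3 CPM in 28 and 64, 14.4 and 20.4 CPM in 29 and 30, and 7.73 to 14.1 CPM at CT0 (log2 1.85 ± 0.42; edgeR adjusted p 0.00336, and 0.051 without 55 and 64), a call also lost in the fit of TRF KO livers alone. In heart, Angptl4 was 4.97 and 5.10 CPM in 28 and 64, 9.00 and 8.54 CPM in 29 and 30, and 11.2 to 37.5 CPM at CT0. This division was noticed in the values and was not tested.

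**Figure D3:**
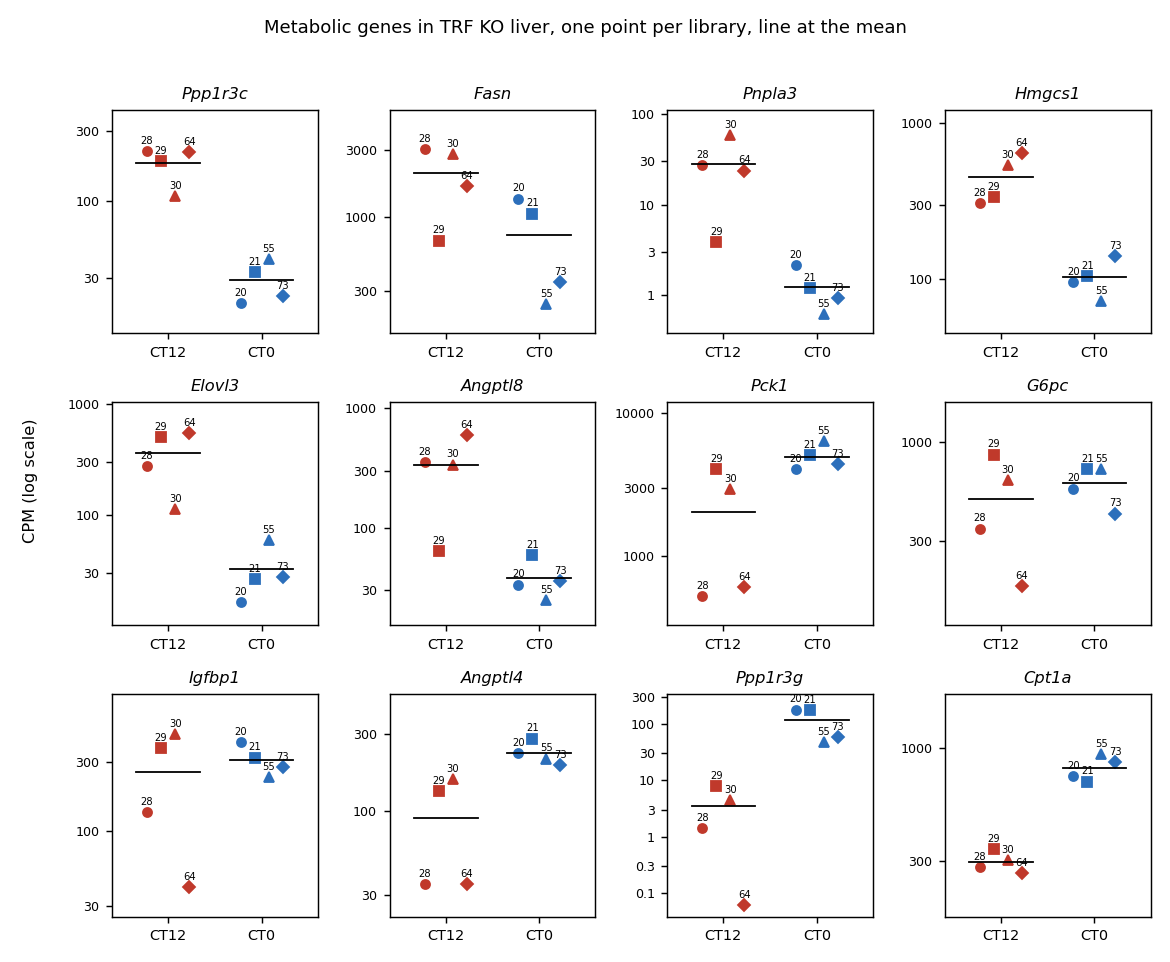
CPM on a log axis for 12 metabolic genes in TRF KO liver, with CT12 libraries (red) left of CT0 libraries (blue), title numbers beside the points and a line at each group mean. Ppp1r3c, Pnpla3, Hmgcs1 and Cpt1a do not overlap between the groups, while libraries 28 and 64 lie below 29 and 30 for Pck1 (519.8 and 598.5 against 4056 and 2933 CPM), G6pc, Igfbp1 and Angptl4.

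Chaperone genes that were called were mostly higher at CT12. Of 20 endoplasmic reticulum chaperones and related genes 10 rose, 1 fell and 9 were not called (median log2 difference 0.45), and of 19 heat shock chaperones 10 rose, 0 fell and 9 were not called (median 0.60), against 10.5% of all genes higher. The CT12 libraries lay wholly above the CT0 libraries for 2 and 3 of these genes, against 8.98% of all genes. Calr, a lectin chaperone, was 989.2, 1219, 648.3 and 890.5 CPM at CT12 and 449.3, 373.3, 452.1 and 553.9 CPM at CT0 (log2 1.03 ± 0.16; edgeR adjusted p 6.07e-05). Herpud1, which acts in the removal of misfolded proteins, was the 1 that fell, at 155.5 to 315.1 CPM at CT12 and 424.5 to 469.4 CPM at CT0 (log2 -0.96 ± 0.17; edgeR adjusted p 2.00e-04). Hsp90aa1, an inducible HSP90, was 224.2, 123.4, 47.9 and 133.1 CPM at CT12 and 30.7, 32.6, 47.7 and 42.8 CPM at CT0 (log2 1.78 ± 0.28; edgeR adjusted p 1.03e-04), library 30 lying just above the CT0 libraries. Stip1 and Fkbp4, co-chaperones of HSP90, rose by 1.14 ± 0.19 and 0.99 ± 0.19. In the fit of TRF KO livers alone 3 heat shock genes were called, and 7 without 55 and 64, where 14.6% and 13.7% of all genes were called. Of 31 proteasome subunits 9 rose and 0 fell, against 10.5% and 11.5% of all genes, with a median of 0.16. Psmd11, a lid subunit, was 93.3 to 115.2 CPM at CT12 and 57.5 to 64.2 CPM at CT0 (log2 0.77 ± 0.08; edgeR adjusted p 1.09e-07).

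Genes of xenobiotic metabolism that were called were mostly lower at CT12. Of 41, 13 fell and 2 rose, against 11.5% and 10.5% of all genes, with a median log2 difference of -0.15. Without libraries 55 and 64, 7 fell, and of the 19 phase II and transport genes 1 fell, against 6 with all libraries. Calls over all genes dropped too, from 22.0% to 13.7% in either direction. Cyp2a5, a P450 enzyme whose reads can be shared with the near-identical Cyp2a4, was 1105, 420.9, 514.5 and 703.8 CPM at CT12 and 2403, 2614, 3583 and 3586 CPM at CT0 (log2 -2.15 ± 0.36; edgeR adjusted p 1.93e-04). Cyp2e1, an ethanol-oxidising P450, was 5998 to 7405 CPM at CT12 and 9380 to 15100 CPM at CT0 (log2 -0.87 ± 0.14; edgeR adjusted p 1.13e-04). Nr1i2, the pregnane X receptor, fell by 0.52 ± 0.10 on the log2 scale. Alas1, the first enzyme of heme synthesis, was 234.1, 364.7, 407.7 and 547.8 CPM at CT12 and 1533, 884.9, 824.7 and 1331 CPM at CT0 (log2 -1.56 ± 0.34; edgeR adjusted p 0.00209). The other called genes among the 11 of heme synthesis were Uros, which rose by 0.38 ± 0.12, and Fech, which fell by 0.23 ± 0.07, where 10.5% and 11.5% of all genes did so. Both lost their calls without libraries 55 and 64, without 64 alone and in the fit of TRF KO livers alone.

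Bile acid genes moved both ways, 4 higher and 7 lower of 21, against 10.5% and 11.5% of all genes. The counts were 3 and 4 without libraries 55 and 64, where 13.7% of all genes were called in either direction. Abcb11, the canalicular bile salt export pump, was 426.9, 537.6, 552.8 and 466.4 CPM at CT12 and 251.1, 216.6, 245.7 and 238.7 CPM at CT0 (log2 1.06 ± 0.11; edgeR adjusted p 1.53e-07). Acox2, which shortens the bile acid side chain, and Fgfr4, the FGF15 receptor, rose by 0.74 ± 0.10 and 0.73 ± 0.13. Abcg5, a subunit of the canalicular sterol exporter, fell by 1.01 ± 0.16, with library 30 (148.2 CPM) above the other CT12 libraries (63.8 to 81.8 CPM). Of 27 urea cycle and amino acid genes 4 rose and 5 fell, against 10.5% and 11.5% of all genes, and 0 of the 7 urea cycle genes were called. Without libraries 55 and 64, 4 rose and 1 fell. Gldc, of the glycine cleavage system, was 241.7 to 331.1 CPM at CT12 and 72.9 to 93.5 CPM at CT0 (log2 1.83 ± 0.14; edgeR adjusted p 1.32e-09). Of 18 genes of the ATF4 and amino acid response 4 rose and 3 fell (2 and 2 without 55 and 64), against 10.5% and 11.5% of all genes. Among those that rose were Atf4 and Atf5, by 0.71 ± 0.14 and 1.41 ± 0.16.

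Cdkn1a, the p21 cell cycle inhibitor, was among the largest rises, at 6.93, 16.5, 36.5 and 36.9 CPM at CT12 and 0.959, 1.63, 0.548 and 0.403 CPM at CT0 (log2 4.74 ± 0.53; edgeR adjusted p 2.45e-06). Ccne1, cyclin E1, fell, at 0.245 to 0.418 CPM at CT12 and 0.789 to 3.91 CPM at CT0 (log2 -2.81 ± 0.45; edgeR adjusted p 7.35e-05). Of 23 cell cycle genes 2 rose and 3 fell, a share like the 22.0% of all genes, and 0 of 9 S phase and mitosis genes were called. Of 12 autophagy genes 6 fell and 0 rose (median -0.50), against 11.5% and 10.5% of all genes. Among those that fell were Bnip3, a mitophagy receptor (log2 -1.12 ± 0.17), and Map1lc3b, which encodes LC3B (log2 -0.63 ± 0.11). Without 55 and 64, where 13.7% of all genes were called, 3 autophagy genes were called, all lower. Of 20 circulating factors 2 rose and 2 fell, also near the 22.0% of all genes called in either direction. Angptl8, raised by feeding and insulin, was 355.4, 64.2, 337.7 and 593.2 CPM at CT12 and 33.6, 59.5, 24.7 and 35.9 CPM at CT0 (log2 3.13 ± 0.55; edgeR adjusted p 3.60e-04), library 29 lying just above the CT0 libraries. Inhba, an activin subunit, rose by 1.85 ± 0.36, and Lepr, the leptin receptor, fell by 1.93 ± 0.39, although its CT0 library 73 (2.35 CPM) lay within the CT12 range of 1.19 to 2.53 CPM.

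In another 6 lists the share of members called was near or below the 22.0% of all genes, apart from the cold-inducible genes. Of 23 growth hormone and sex-biased genes 1 rose and 3 fell, of 14 glucocorticoid targets 1 and 2, of 15 immediate early genes 1 and 1, of 24 acute phase and metal genes 3 and 0, and of 18 ribosome biogenesis genes 1 and 1. Of 5 cold-inducible RNA-binding genes 2 fell, Cirbp and Srsf5, and both calls were lost without libraries 55 and 64 and in the fit of TRF KO livers alone. Of 80 cytosolic ribosomal protein genes 1 rose and 1 fell, of 12 mitochondrial genome genes 0 were called, and of 77 nuclear oxidative phosphorylation subunits 1 fell. Mt1, a metallothionein, was not called, with 192.7 CPM in library 30 and 8.97 to 30.8 CPM in the other CT12 libraries, against 115.6 to 454.5 CPM at CT0 (log2 -2.37 ± 0.88, and -4.20 ± 0.86 without library 30, where the edgeR adjusted p was 0.00165). DESeq2 called Mt1 lower with all libraries (DESeq2 adjusted p 0.0251).

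**Figure D4:**
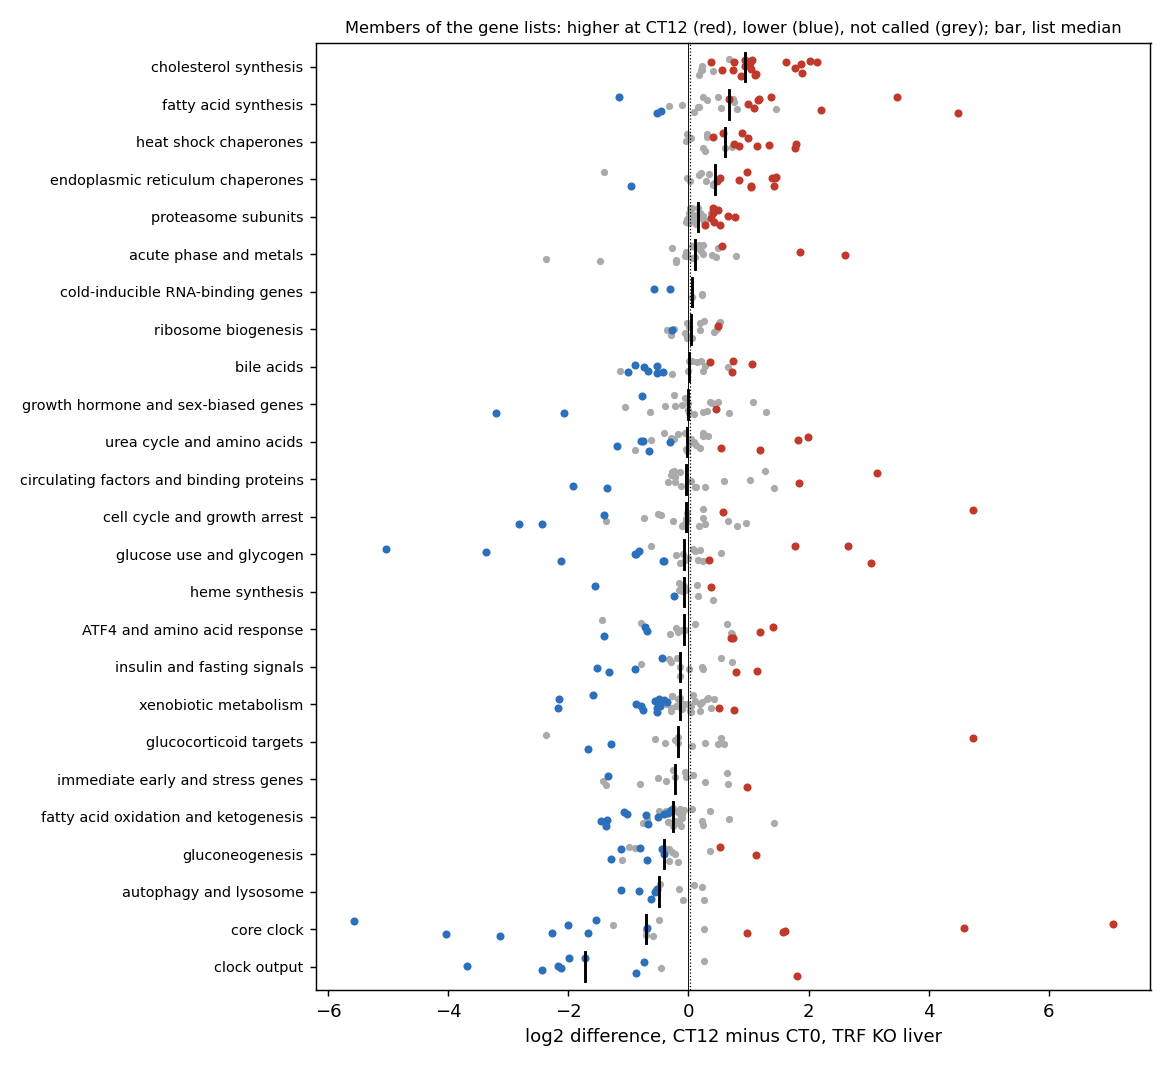
The log2 difference, CT12 minus CT0, of each tested member of the 25 gene lists in TRF KO liver, with called genes in red (higher at CT12) and blue (lower), others grey, bars at list medians and a dotted line at the median of all genes (0.03). Cholesterol synthesis has the highest median (0.95) and clock output the lowest (-1.73).

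Among genes outside the clock, several enzymes and carriers differed with little spread between libraries. Chka (chromosome 19, 3851773 to 3894369 in GRCm38), the choline kinase, was 224.0, 154.0, 206.2 and 295.1 CPM at CT12 and 18.5, 15.9, 19.2 and 19.4 CPM at CT0 (log2 3.59 ± 0.19; edgeR adjusted p 7.46e-12). Slc30a10, a manganese exporter, was 69.4 to 107.1 CPM at CT12 and 12.5 to 14.6 CPM at CT0 (log2 2.61 ± 0.15; edgeR adjusted p 1.72e-11). Clpx, the unfoldase of the mitochondrial ClpXP protease, rose by 2.46 ± 0.15. Tubb2a, a tubulin whose reads can be shared with close paralogues, rose by 3.66 ± 0.24, Loxl4 by 4.58 ± 0.65 and Spon2 by 2.60 ± 0.46. The largest falls outside the clock lists included Gpcpd1, a glycerophosphocholine phosphodiesterase, at 13.3, 56.5, 37.3 and 23.2 CPM at CT12 and 217.7, 383.9, 325.9 and 295.0 CPM at CT0 (log2 -3.23 ± 0.45; edgeR adjusted p 3.53e-05). Tomm40l and Upp2, a uridine phosphorylase, fell by 2.32 ± 0.23 and 2.29 ± 0.48, and Acot3, a peroxisomal thioesterase of a family with close copies, by 3.21 ± 0.71. Rgs16, a regulator of G protein signalling, fell by 2.71 ± 0.85 (edgeR adjusted p 0.0269), a call lost without 21, 29 or 64, without 55 and 64, in the fit of TRF KO livers alone and without the 4 AL libraries.

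The time differences of KO livers were tested against those of TRF WT livers, measured in 3 libraries at each time, and the test of the difference itself called few genes. In TRF WT 3323 genes (23.1%) differed between the times, and 8 of 14397 genes (0.0556%) were called for a genotype by time interaction, while 1384 had an unadjusted p below 0.05. DESeq2 called 63 for the interaction and edgeR on the 4 TRF groups alone 0. No core clock gene was called for it. Arntl differed by 4.59 ± 0.16 in KO and 3.94 ± 0.17 in WT, with an interaction of 0.65 ± 0.24 (edgeR adjusted p 0.364). Nr1d1 differed by -1.26 ± 0.80 in KO and -4.04 ± 1.06 in WT, with an interaction of 2.78 ± 1.29 (edgeR adjusted p 0.5). These p-values do not show that the genotypes act alike.

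The 8 genes called for the interaction were F2r, Gm26684, Gsta4, Magi3, Spata2l, Stard4, Tkfc and Ugcg. Tkfc, which phosphorylates dihydroxyacetone and glyceraldehyde, averaged 505 ± 108 CPM at CT12 and 668 ± 77.5 CPM at CT0 in KO (SD, n = 4), and 919 ± 36.9 and 532 ± 87.4 CPM in WT (SD, n = 3; interaction log2 -1.19 ± 0.20, edgeR adjusted p 0.0275). Ugcg, which makes glucosylceramide, averaged 15.5 ± 3.22 and 14.5 ± 1.21 CPM in KO, and 8.18 ± 1.05 and 19.2 ± 6.63 CPM in WT (log2 1.33 ± 0.25; edgeR adjusted p 0.0416). F2r, a thrombin receptor, averaged 27.0 ± 2.50 and 23.5 ± 0.93 CPM in KO, and 21.0 ± 3.05 and 38.9 ± 5.21 CPM in WT (log2 1.09 ± 0.18; edgeR adjusted p 0.0275). Within KO, Magi3 and Stard4 rose and Spata2l and Tkfc fell, while F2r, Gm26684, Gsta4 and Ugcg were not called. The calls of Stard4 and Tkfc within KO were lost without libraries 55 and 64. All 8 interaction calls were lost in the fit of the 4 TRF groups alone and without the 4 AL libraries of 3-digit title numbers, where edgeR called 0 genes and 1068 had an unadjusted p below 0.05.

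The time differences of the KO livers were also tested against those of AL KO livers, and here the test called many genes. The AL KO livers, with 3 libraries at each time, had 2 genes (0.0139%) called between CT12 and CT0, and 1604 genes (11.1%) were called for a feeding by time interaction, 14 of the 19 core clock genes among them. Without the 4 AL libraries of 3-digit title numbers, which leaves 2 AL KO libraries at each time, edgeR called 565 genes (3.86%) for the interaction, 10 core clock genes among them, and 0 between the times in AL KO, where 344 genes had an unadjusted p below 0.05. The clock calls lost were those of Per1, Cry1, Nr1d2 and Tef. Arntl averaged 32.4 ± 4.34 and 1.35 ± 0.40 CPM at CT12 and CT0 under TRF (SD, n = 4), and was 25.4 and 32.1 CPM in AL libraries 65 and 66 at CT12 and 39.9 and 35.4 CPM in AL libraries 56 and 57 at CT0 (interaction log2 5.00 ± 0.21; edgeR adjusted p 5.66e-14, and 9.17e-10 without the 3-digit libraries). Dbp averaged 3.47 ± 3.56 and 163.9 ± 22.0 CPM under TRF, and was 14.2 and 4.23 CPM at CT12 and 1.28 and 3.52 CPM at CT0 in the same AL libraries (interaction log2 -7.40 ± 0.87; edgeR adjusted p 1.96e-05, and 0.00171 without the 3-digit libraries). In both the AL livers at each time lay near the TRF level of CT12, and so did the genes outside the clock with the smallest interaction p. Chka averaged 219.8 ± 58.3 and 18.2 ± 1.61 CPM at CT12 and CT0 under TRF, and was 155.4 and 253.9 CPM at CT12 and 268.1 and 173 CPM at CT0 in the AL libraries (interaction log2 3.78 ± 0.27; edgeR adjusted p 4.97e-09, and 5.17e-06 without the 3-digit libraries). Slc5a6, the sodium-dependent multivitamin transporter, averaged 8.16 ± 0.99 and 30.1 ± 2.97 CPM under TRF, and was 9.83 and 8.14 CPM at CT12 and 6.32 and 6.50 CPM at CT0 in the AL libraries (interaction log2 -2.30 ± 0.17; edgeR adjusted p 5.17e-09, and 2.15e-06 without the 3-digit libraries). Avpr1a, Clpx, Pnkd, Slc30a10, Stra6l, Tars and Trim2 had interaction log2 values of 1.71 to 2.65, with AL means above their TRF means of CT0 at both times. For these genes both the interactions and the AL means include the 3-digit libraries.

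**Figure D5:**
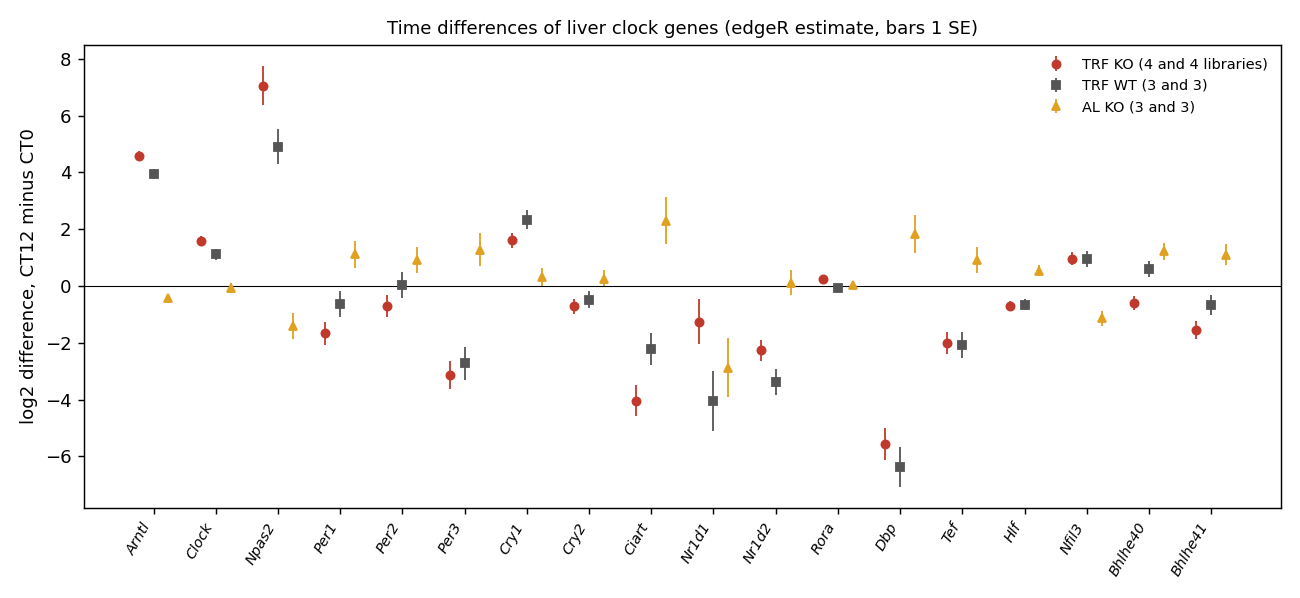
Log2 difference, CT12 minus CT0, of 18 clock genes in TRF KO (red circles), TRF WT (grey squares) and AL KO (yellow triangles) livers, with bars of 1 SE. The TRF KO points of Arntl (4.59) and Dbp (-5.57) lie near the TRF WT points (3.94 and -6.37) and on the other side of 0 from the AL KO points (-0.41 and 1.83). Neither of these AL KO differences was called (edgeR adjusted p 0.581 and 0.706). The AL KO points and bars include the libraries of 3-digit title numbers.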

How the data were processed

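RNA of SCN, liver and heart was sequenced, and the authors deposited 1 table of raw counts per gene. Per the labels' protocols, libraries were made with the NEBNext Ultra II RNA kit from TRIzol RNA. Per the submitters' processing notes, FastQC 0.11.8 and STAR were used with mm10/GRCm38; the counting program and its strand setting are not given in the sources used here, so reads of overlapping or antisense genes cannot be told apart.

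Groups came from the labels. The 26 liver libraries were fitted together in edgeR 4.0.16 (R 4.3.3; TMM factors, filterByExpr, robust quasi-likelihood, group means), which tested 14397 genes, and p-values were adjusted over all of them by Benjamini-Hochberg at 0.05. The SE is the absolute log2 difference over the square root of F. CPM are counts relative to the TMM-scaled library total. Total counts of 15351853 to 18254425 per library limit precision for genes with few reads. The fit was also run on simulated independent counts, drawn with a single dispersion per gene estimated from these liver libraries. That run cannot test dependence between libraries or a spread that differs between groups. Coordinates are from GENCODE vM21 (GRCm38), in which 99.76% of 38129 entries matched, and promoters from RefSeq GRCm38.p6.

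The members and lists (25 lists, 503 genes) were chosen with earlier results of these data known. The text names the core clock genes, up to 5 genes of smallest p per list, up to 15 largest rises and falls among called genes of at least 5 CPM whose groups did not overlap, and up to 10 genes per interaction. Ribosomal protein, mitochondrial genome and oxidative phosphorylation families were added after seeing the data. How far each library lay from weighted means of pairs of its group was computed after seeing the data. Alternatives were RLE factors, no filter, DESeq2 1.42.0, only the compared groups, and leaving out libraries. Some genes that this rule takes are not reported here. SCN and heart values are CPM without tests.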

Additional observations from a re-analysis of the deposited data

Results flagged for a closer look

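Among 143 named genes and both groups of 4, 286 groups of values were checked for a library far from the other 3, and 13 were marked, close to the 1 in 20 that chance gives. At CT12, library 30 stood apart with 68.2 CPM of Nr1d1 (2.76 to 6.57 in the others), 192.7 of Mt1 (8.97 to 30.8) and 8.34 of Klf6 (5.74 to 6.09). Library 28 stood apart with 13.3 CPM of Usp2 (3.17 to 4.72), 155.2 of Gys2 (100.5 to 105.8) and 11.6 of Wee1 (1.79 to 2.27). Library 29 had 133.6 CPM of Lss (247.5 to 260.8), and library 64 had 32.7 of Crtc2 (45.4 to 47.2) and 2.39 of Cyp2a4 (0.478 to 0.803), whose reads can be shared with Cyp2a5. At CT0, library 20 had 0.113 CPM of Npas2 and 13.7 of Uros, and library 21 had 219.1 of Rgs16 and 34.6 of Slc5a6. The Npas2 mark is 2 reads against 1 read in each of libraries 21, 55 and 73, so it carries little weight.

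The time difference of 8 genes differed between TRF KO and TRF WT by the interaction test, with log2 interactions of 1.09 for F2r, -0.97 for Gsta4, 0.76 for Magi3, -1.55 for Spata2l, 0.96 for Stard4, -1.19 for Tkfc, 1.33 for Ugcg and 1.59 for Gm26684 (edgeR adjusted p 0.0275 to 0.0427). Between TRF KO and AL KO the clock genes differed with log2 interactions of 5.00 for Arntl, 1.65 for Clock, 8.47 for Npas2 (whose TRF KO CT0 values rest on 5 reads in all), 1.29 for Cry1 and 2.10 for Nfil3. The negative ones were -2.78 for Per1, -4.42 for Per3, -6.34 for Ciart, -2.39 for Nr1d2, -7.40 for Dbp, -2.92 for Tef, -1.23 for Hlf, -1.81 for Bhlhe40 and -2.65 for Bhlhe41 (edgeR adjusted p at most 0.0451). These values include the AL libraries of 3-digit title numbers, without which the calls of Per1, Cry1, Nr1d2 and Tef were lost. The other feeding interactions named, from the same fit, were 2.30 for Avpr1a, 3.78 for Chka, 2.65 for Clpx, 1.89 for Pnkd, 2.52 for Slc30a10, -2.30 for Slc5a6, 1.71 for Stra6l, 1.84 for Tars and 1.86 for Trim2.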

How the results depend on the processing

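The 3167 genes called between CT12 and CT0 in TRF KO livers numbered 1934 in a fit of the compared groups alone (1896 shared), 1973 without libraries 55 and 64 (1897 shared) and 844 with both changes (830 shared), and 2494 (without 64) to 3216 (without 30) with 1 library left out. For the genotype by time interaction the 8 calls became 14 without the filter, 63 with DESeq2, 4 without 55 and 64, 0 in the compared groups alone with or without 55 and 64, and 0 without the 4 AL libraries of 3-digit title numbers. With 1 library left out they numbered 0 (without 20, 55 or 29) to 64 (without WT 11), with 1 without WT 1, 3 without WT 12, 5 without WT 2, WT 3, 21, 73 or 64, 24 without 28 and 19 without 30. The 1604 feeding by time calls became 565 without those 4 libraries, and 1047 (without 65) to 1771 (without 30) with 1 library left out. Of 134 called genes named for the time effect, 0 changed direction under any alternative, 78 were called under all of them, 20 lost their call without 55 and 64, 22 in the compared groups alone, 55 with both changes and 15 without at least 1 single library. Uncalled differences changed sign for Igfbp1 (-0.76 without 30 to 0.071 without 64) and G6pc (0.12 without 55 and 64 in either fit, and -0.65 without 29 to 0.025 without 64), and the uncalled feeding interaction of Nr1d1 ran between -0.64 without 30 and 2.18 without AL KO 57. The cause was not tested. No paired analysis was possible because the CT12 and CT0 groups share no title number.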
